A study of Homo sapiens with 11 samples.

Results

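The 37 genes described here are 21 that carry glucose into the cell and through glycolysis and 16 that cells with little oxygen are known to switch on. They were given as a list of symbols, and each was found once among the 36601 genes of the count files. H9, a human embryonic stem cell line, was the source of every sample. The groups, at day 42.5, were a 2D culture, heart organoids (cardioids) given PD173074, which inhibits FGF receptors, and cardioids without it. The labels do not say when, at what dose or for how long PD173074 was given, nor whether more than 1 culture was pooled. The 3 libraries of the 2D culture, 3 with PD173074 and 5 without it shared from 99.3% to 99.9% of their cell barcodes within a group and at most 0.737% between groups. They were read as repeat runs of 1 sample per group. The differences below thus rest on no replicates and carry no test.

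Glycolysis splits glucose into pyruvate, with a small yield of ATP that needs no oxygen, and lactate dehydrogenase then turns pyruvate into lactate. When oxygen falls, the prolyl hydroxylases stop marking the HIF alpha subunits for destruction, and HIF binds DNA at a short core, A or G followed by CGTG, near genes for glucose uptake, glycolysis, blood vessel growth and mitophagy. Fetal heart muscle relies more on glycolysis than adult heart muscle, which burns mostly fatty acids.

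The letters of that core were searched on both strands in the 250 bases before each transcription start in the RefSeq promoters (GRCh38.p14), for 33 of the 37 genes. Of their 62 promoters, 40.3% held ACGTG and 35.5% held GCGTG. Over all 35116 promoters of the table the shares were 18.5% and 32.2%, and the promoters of 1 gene can overlap. Either motif was in 61.3% of the 62 promoters and 43.2% of all promoters. At least 1 of them stood in a promoter of 28 of the 33 genes and of 12945 of all 27305 genes, which have fewer promoters per gene in the table. A match is a description of the letters and shows no binding. EGLN3, SLC2A1, P4HA2, PGAM1 and PKM, all called lower with PD173074 than without it below, held neither motif in a searched promoter. ALDOC, the only gene called higher there, held 3 matches of ACGTG and 2 of GCGTG. Whether the motifs go with the change was not tested. The stretches below belong to 4 genes that were among the most reduced with PD173074 and lie outside annotated exons. Capitals mark each match, with CACGT and CACGC being the same motifs on the other strand, and CACGTG holding a match on either strand.
PGK1, chrX:78104022-78104084, plus strand: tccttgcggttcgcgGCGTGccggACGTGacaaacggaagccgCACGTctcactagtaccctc
FAM162A, chr3:122384075-122384165, plus strand: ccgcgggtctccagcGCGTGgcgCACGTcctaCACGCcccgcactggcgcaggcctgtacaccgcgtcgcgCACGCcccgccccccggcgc
BNIP3, chr10:131982015-131982074, minus strand: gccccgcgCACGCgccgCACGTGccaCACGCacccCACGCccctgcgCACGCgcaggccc
LDHA, chr11:18396213-18396247, plus strand, before another start of the gene: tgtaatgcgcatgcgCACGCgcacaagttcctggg

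Cells with the troponin gene TNNT2 above 1000 CPM (a gene's counts scaled to a total of 1000000) in their cluster are called TNNT2-high cells here. They made up 7237 of the 2D culture's 8183 cells, 3146 of 3534 in cardioids without PD173074 and 3396 of 4597 in cardioids with it. They are not named cardiomyocytes, because clusters 0, 5 and 10 among them had KDR, ALDH1A2 or MYH11, markers of other cell types, among their 10 leading genes. A run of the 2D culture held 43908067 to 46304366 UMIs (counted RNA molecules), a run with PD173074 from 36127841 to 37765195 and a run without it from 12266166 to 24495291. The lowest total belonged to run 3 without PD173074, whose GAPDH level was 6710 CPM against 4807 to 4950 CPM in the other runs of that sample. Of the TNNT2-high cells without PD173074, 51.8% lay in clusters that another sample dominates, where the share was 2.46% for the 2D culture and 3.03% with PD173074. Main values are therefore also given without such cells, as values from a sample's own clusters. A sample's level is the mean CPM over its runs. A gene was called higher or lower when it reached 10 CPM in the higher sample and the whole 95% interval of the ratio, which covers counting error only, lay beyond 1.5-fold.

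In TNNT2-high cells most of the genes were lower with PD173074 than without it, and the cardioids without it differed little from the 2D culture. With PD173074 against without it, 22 of the 36 genes above the floor were called lower and 1, ALDOC, higher. Of all 10589 genes above the floor, 4.58% were called lower and 5.33% higher. The median log2 ratio of the 36 was −0.69, and that of all genes above the floor was −0.07. Without PD173074 against the 2D culture, 0 were called lower and 1, ADM, higher, where 0.71% and 2.54% of all genes were; the median was 0.04. With PD173074 against the 2D culture, 20 were called lower and 3, ALDOC, MXI1 and ADM, higher, where 6.47% and 8.54% of all genes were; the median was −0.66. The comparisons share samples and are not independent.

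From own clusters, 21 genes were called lower and 1 higher with PD173074 against without it, where 5.78% and 6.06% of all genes were, with a median of −0.77. With the clusters that both samples fill weighted equally, the calls were 6 lower and 0 higher, where 0.684% and 0.218% of all genes were, and the median was −0.39. These 4 clusters include clusters 2 and 10, where the cells of the samples stood in a near constant proportion, described below. The fewer calls are thus not read as a smaller difference. At 2-fold in place of 1.5-fold, 8 were called lower and 0 higher, where 1.92% and 2.6% of all genes were.

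Without PD173074 against the 2D culture, own clusters gave 2 genes called higher (SLC2A1 and ADM) and 0 lower, where 4.8% and 2.38% of all genes were. Shared clusters weighted equally gave 0 in either direction, where 0.372% of all genes were higher and 0.0857% lower. The 7 shared clusters include clusters 0, 1 and 5, where the cells of the samples stood in a similar proportion, described below. Of all genes there, 1, 2 and 4 were called higher and 0 lower. The lack of calls is thus not read as a lack of difference. Without the clusters led by a marker of another cell type, 2 were higher (P4HA1 and ADM) and 0 lower, where 4.14% and 1.66% of all genes were. With PD173074 against the 2D culture, own clusters gave 20 lower and 3 higher, where 6.68% and 8.83% of all genes were. The 2 shared clusters weighted equally gave 8 lower and 0 higher, where 1.92% and 1.79% of all genes were. At 2-fold there were 7 lower and 2 higher, where 2.72% and 4.91% of all genes were.

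**Figure D1:**
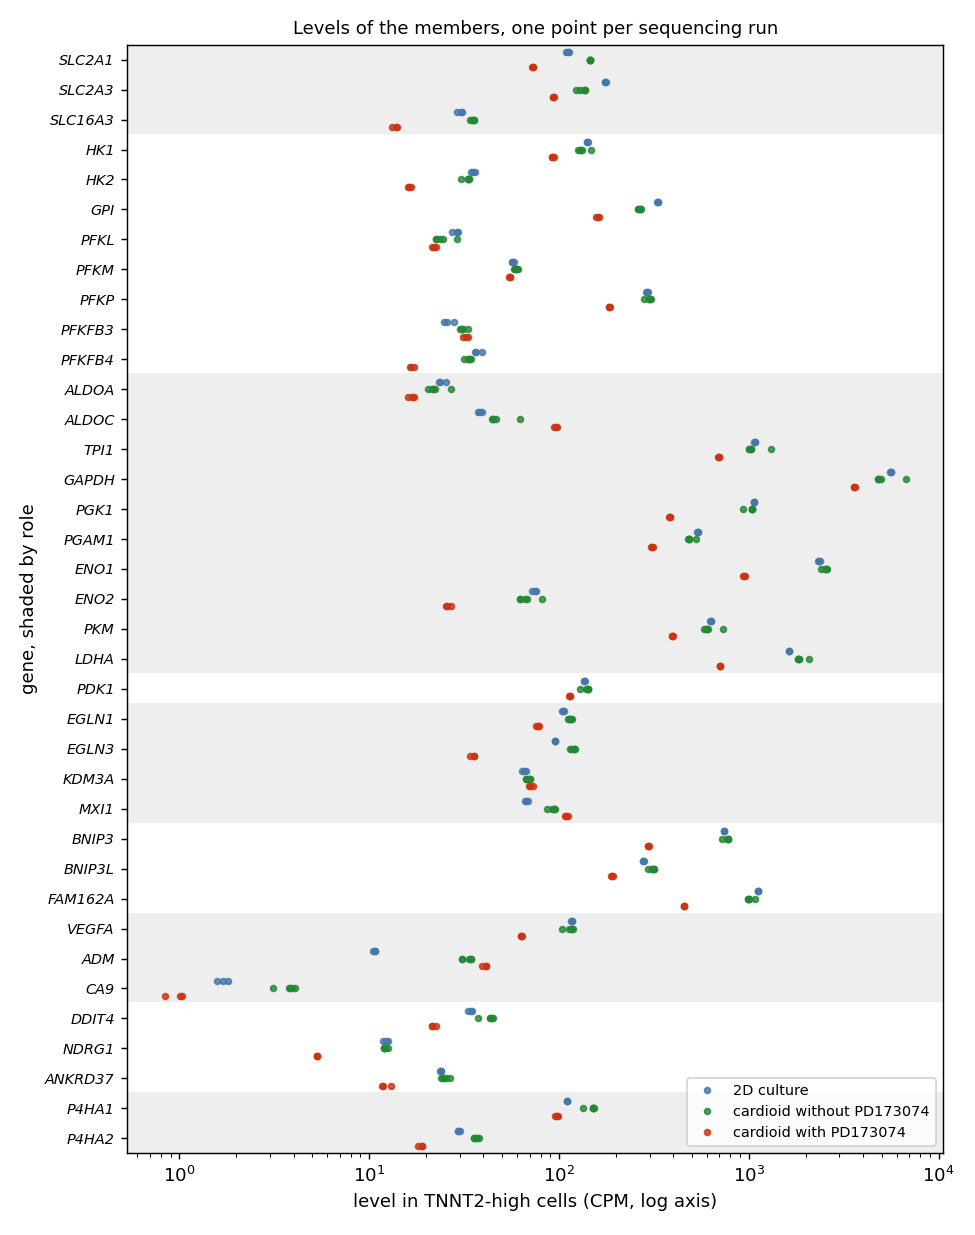
Level of each gene (CPM, log axis) in TNNT2-high cells, 1 point per sequencing run, with the genes shaded by role. For PGK1, ENO1, LDHA, BNIP3 and FAM162A the runs with PD173074 all lie below the runs of the other samples; these are repeat runs and not replicates.

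The 3 transporters sat lowest with PD173074. SLC2A1, the main glucose carrier of many cells, was at 111 CPM in the 2D culture, 146 without PD173074 and 72.6 with it. Its log2 ratio with against without PD173074 was −1.0 (95% counting interval −1.09 to −0.91). SLC16A3, which exports lactate, was at 30.1, 35.2 and 13.7 CPM in the same order, a log2 ratio of −1.36 (−1.56 to −1.17). SLC2A3, a high-affinity glucose carrier, was at 175, 132 and 93.1 CPM; its log2 ratio of −0.51 stayed short of the call against the cardioid without PD173074 but was called lower against the 2D culture, at −0.91. From own clusters SLC2A1 alone of the transporters was called higher without PD173074 than in the 2D culture, with a log2 ratio of 0.68.

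Of the 8 genes for the entry steps and their control, 4 were called lower with PD173074 than without it. HK2, an inducible hexokinase, was at 35.4 CPM in the 2D culture, 32.8 without PD173074 and 16.4 with it, a log2 ratio of −1.0 (−1.19 to −0.82). PFKFB4, an enzyme that sets the level of a phosphofructokinase activator, was at 37.4, 33.3 and 16.7 CPM, a ratio of −0.99. The other called genes were GPI, glucose phosphate isomerase, at −0.73, and PFKP, the platelet-type phosphofructokinase, at −0.68. HK1, the constitutive hexokinase, was at 141, 133 and 92.7 CPM and was not called. PFKM, the muscle-type phosphofructokinase, was at 57.1, 59.2 and 54.9 CPM and PFKL, the liver type, at 28.5, 24.5 and 22.0 CPM, and neither was called. PFKFB3, the relative of PFKFB4, was at 26.1, 31.2 and 32.2 CPM, with an interval of −0.11 to 0.21 around 0.05.

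The later steps held large shifts in ENO1, LDHA and PGK1 and the only gene called the opposite way. ENO1, the main enolase, was at 2339.9 CPM in the 2D culture, 2515 without PD173074 and 942 with it, a log2 ratio of −1.42 (−1.44 to −1.39). LDHA, which makes lactate, was at 1626, 1878 and 706 CPM, a ratio of −1.41 (−1.44 to −1.38). PGK1, the first ATP-making enzyme of the pathway, was at 1064, 1014 and 383 CPM, a ratio of −1.40 (−1.44 to −1.37). The sample with PD173074 was the low one in each, and the other samples lay close together.

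ENO2, the neuronal enolase, was at 74.0, 67.8 and 26.1 CPM, a log2 ratio of −1.38. Smaller ratios were called for PGAM1, phosphoglycerate mutase, at −0.67, PKM, pyruvate kinase, at −0.65, and TPI1, triose phosphate isomerase, at −0.63. GAPDH, which lies between TPI1 and PGK1 in the pathway, was at 5584, 5228 and 3603 CPM, a ratio of −0.54 that was not called; without run 3 it was −0.43. The calls of TPI1 and PKM were lost without run 3, and both were also lost in own clusters.

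ALDOC, the brain-type aldolase, ran the other way. It was at 38.3 CPM in the 2D culture, 48.7 without PD173074 and 96.1 with it, a log2 ratio of 0.98 (0.87 to 1.10) in cardioids and 1.33 (1.23 to 1.42) against the 2D culture. Cluster 2, made mostly of cells with PD173074, carried ALDOC at 111 CPM with PD173074 and 119 without it, and cluster 10 at 132 and 125 CPM, and the intervals of both ratios held 0. Few of all genes were called there, 0.185% lower and 0.00975% higher in cluster 2 and 0.0574% and 0.0191% in cluster 10. Their cells stood in a near constant proportion, described below, so these levels are not read as a lack of change. In cluster 4 ALDOC was at 66.1 and 42.7 CPM, a log2 ratio of 0.63 (0.26 to 1.02). ALDOA, the muscle aldolase, was at 24.1, 22.5 and 16.7 CPM and was not called. ALDOA and ALDOC each overlap another protein-coding gene on their strand, as do PGK1, ENO2, EGLN3 and PFKFB4 (GENCODE v29), and the counting of reads from such stretches is uncertain. The low level of ALDOA is thus not read as its abundance, nor set against that of ALDOC.

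**Figure D2:**
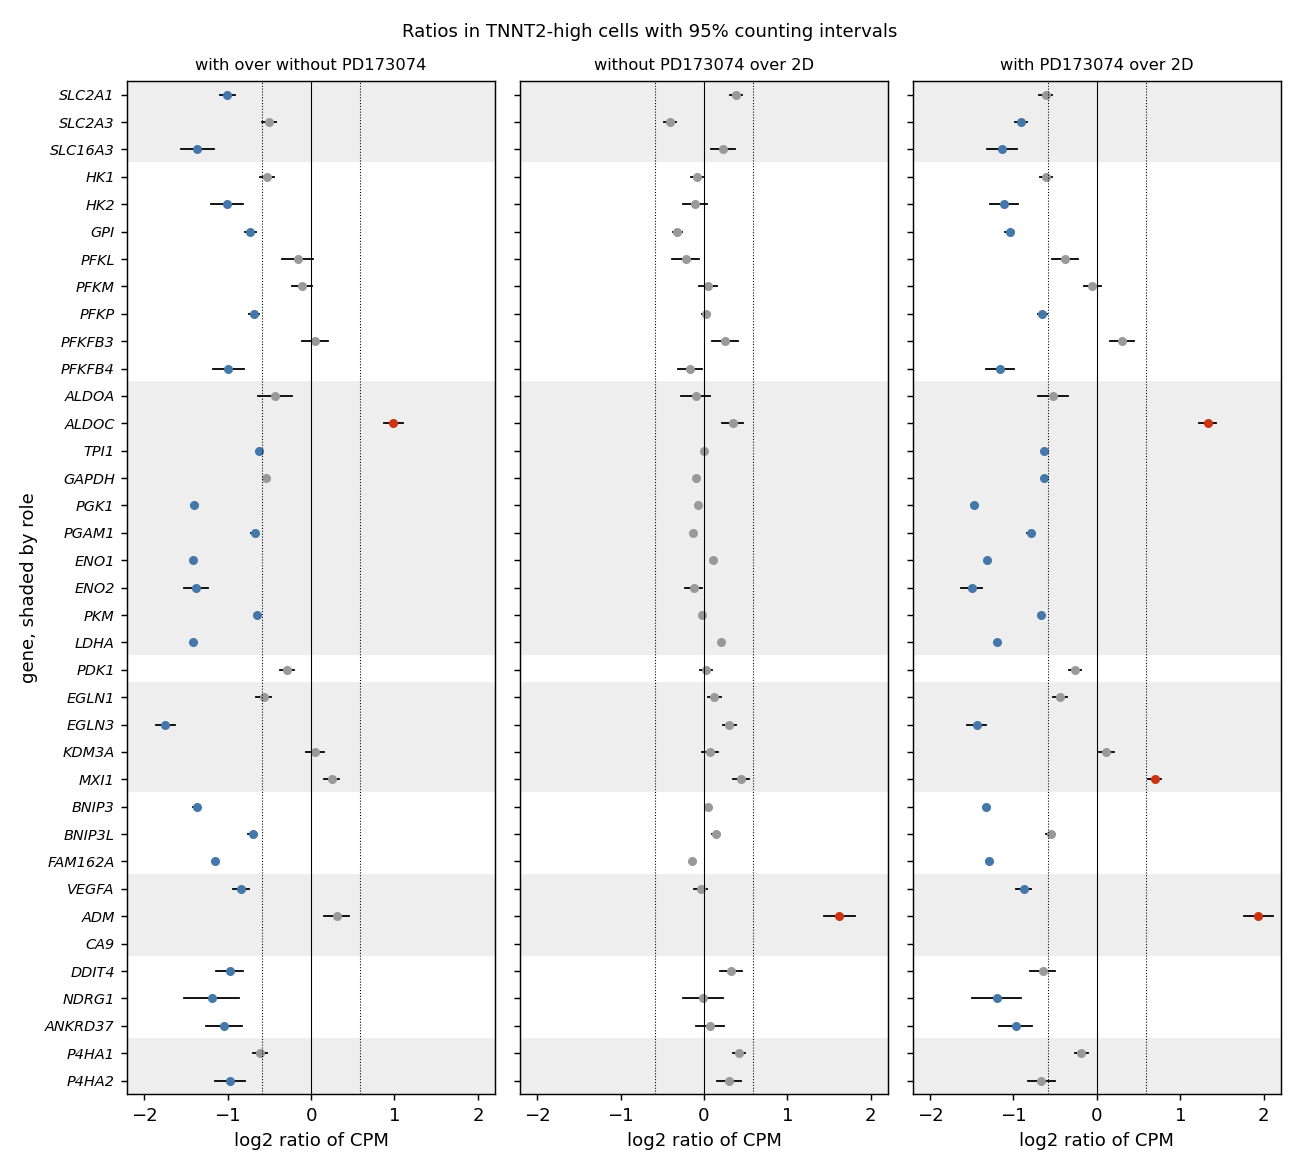
Log2 ratio of CPM in TNNT2-high cells for the 3 comparisons, with 95% counting intervals; blue points are called lower, red points higher and grey points neither, and dotted lines mark 1.5-fold. Most points lie left of 0 in both comparisons that hold PD173074, with medians of −0.69 and −0.66, and near 0 in the other; CA9 was under the 10 CPM floor.

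Of the 15 hypoxia genes above the floor, 9 were called lower and 0 higher with PD173074 against without it. All 3 mitochondrial genes were called lower with PD173074 than without it. BNIP3, a receptor for mitophagy, was at 740.3 CPM in the 2D culture, 763 without PD173074 and 296 with it, a log2 ratio of −1.37 (−1.41 to −1.33). FAM162A, a mitochondrial protein induced by HIF, was at 1118, 1014 and 456 CPM, a ratio of −1.15 (−1.19 to −1.12). BNIP3L, the close relative of BNIP3, was at 279, 309 and 190.2 CPM, a ratio of −0.70.

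Among the genes that feed back on HIF, EGLN3, a prolyl hydroxylase induced by HIF, had the deepest ratio of all 36. It was at 95.6, 118 and 35.2 CPM, a log2 ratio of −1.75 (−1.86 to −1.63). EGLN1, the main prolyl hydroxylase that senses oxygen, was at 105, 114 and 77.0 CPM and was not called. KDM3A, a histone demethylase, was at 65.6, 68.9 and 71.0 CPM, with an interval of −0.06 to 0.15. MXI1, an antagonist of MYC, was at 67.6, 92.0 and 109 CPM and was called higher with PD173074 against the 2D culture only, at 0.69 (0.61 to 0.77). PDK1, which closes the pyruvate dehydrogenase gate into mitochondria, was at 137, 139 and 114 CPM, a ratio of −0.29 that was not called.

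Of the secreted and pH genes, VEGFA, the growth factor of blood vessels, was at 117 CPM in the 2D culture, 114 without PD173074 and 63.4 with it, a log2 ratio of −0.84 (−0.94 to −0.74). ADM, the vessel-relaxing peptide adrenomedullin, followed another order, at 10.7, 32.9 and 40.7 CPM. Its log2 ratio to the 2D culture was 1.62 (1.44 to 1.81) without PD173074 and 1.93 (1.76 to 2.11) with it, and 0.31 between the cardioids. CA9, a carbonic anhydrase at the cell surface, was at 1.70, 3.74 and 0.958 CPM, under the floor in every sample.

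All 3 stress genes were called lower with PD173074 than without it. DDIT4, an inhibitor of mTORC1, was at 34.1, 42.8 and 21.8 CPM, a log2 ratio of −0.98 (−1.14 to −0.81). ANKRD37 was at 24.0, 25.1 and 12.2 CPM, a ratio of −1.04, and NDRG1, a stress-response gene, at 12.2, 12.2 and 5.32 CPM, a ratio of −1.19. The collagen prolyl hydroxylase subunit P4HA2 was at 29.7, 36.7 and 18.7 CPM and was called lower, at −0.97. Its relative P4HA1 was at 111, 148 and 97.1 CPM, a ratio of −0.61 that was not called but was called from own clusters, at −0.86.

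Other measures moved with the same samples. In TNNT2-high cells the 11 genes known to respond to dissociation summed to 659 CPM (2D culture), 980 (without PD173074) and 1590 (with it). With PD173074 against without it, 5 of them were called higher and 1 lower. Of all genes above the floor, 5.33% were called higher and 4.58% lower in that comparison, which the counts below also use. The 9 stromal markers summed to 278, 243 and 608 CPM, with 6 of the 6 above the floor called higher with PD173074 against without it. The 7 smooth muscle or pericyte markers summed to 1504, 1397 and 2827 CPM. Of the 6 above the floor, 3 were called higher and 1 lower. The 8 endothelial markers summed to 158, 128 and 60.1 CPM, with 2 of the 2 above the floor called lower. The 13 cardiomyocyte markers summed to 16997, 20594 and 26791 CPM, with 2 called higher and 3 lower, and the 4 pluripotency markers to less than 1 CPM in each sample. The 6 cell cycle markers summed to 192, 343 and 439 CPM, with 1 called higher and 0 lower. From own clusters their sums were 194, 548 and 448 CPM. Against the 2D culture 5 of the 6 were called higher without PD173074 and 5 with it, where 2.54% and 8.54% of all genes were. Median UMIs per TNNT2-high cell were 4097, 4971 and 5894, and median mitochondrial shares 5.15%, 3.53% and 4.16%. The part of these in the results was not tested.

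Counted cell by cell, the lower levels showed as fewer cells with a UMI. Each cell of run 1 was thinned to 2000 UMIs, which left out 613 TNNT2-high cells of the 2D culture, 173 without PD173074 and 281 with it. PGK1 then had a UMI in 82.9% of cells of the 2D culture, 74.7% (95% exact binomial interval 73.1% to 76.2%) without PD173074 and 45.9% (44.2% to 47.7%) with it. LDHA was found in 89.3%, 85.8% and 54.9% of cells, and EGLN3 in 16.7%, 18.9% and 6.65%. BNIP3 was found in 71.5%, 66.4% and 36.6% of cells after thinning and in 85.2%, 83.5% and 60.9% before it. ALDOC ran the other way, at 7.74%, 8.51% and 17.2%. No cell type here is known to lack these genes; the lowest BNIP3 shares were in the epithelial-like cluster 9 described below, at 14.0% without PD173074 and 10.7% with it, with median depths of 6306 and 10058 UMIs in those cells against 5476 and 6421 in TNNT2-high cells. The median TNNT2-high cell held 29 UMIs of the 21 glycolysis genes in the 2D culture, 26 without PD173074 and 14 with it. For the 16 hypoxia genes the medians were 6, 5 and 3.

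**Figure D3:**
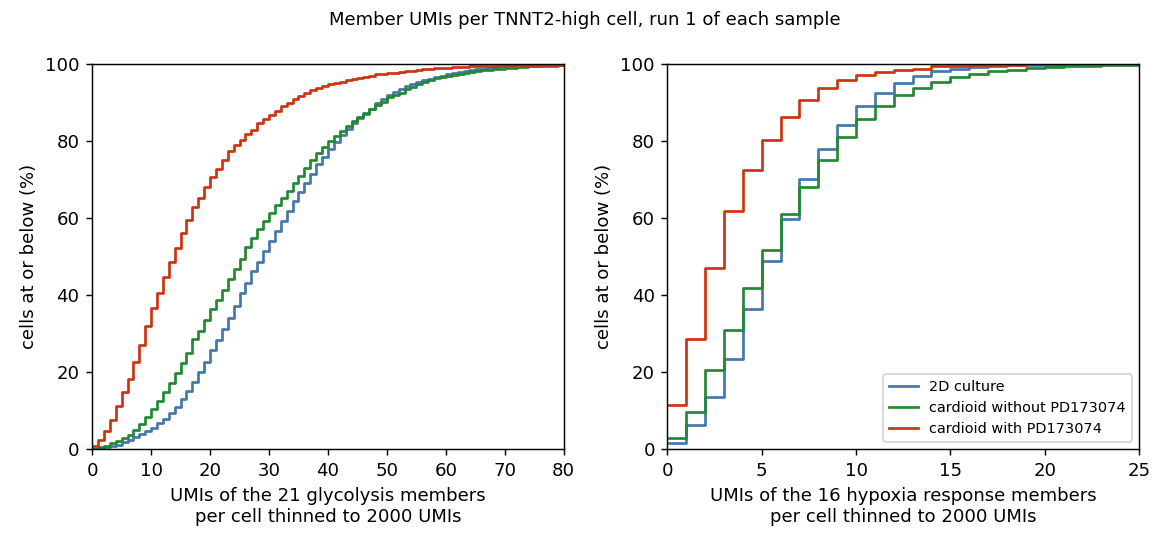
Share of TNNT2-high cells (%) with at most the given number of UMIs of the glycolysis or hypoxia genes, after thinning each cell of run 1 to 2000 UMIs. The curve with PD173074 lies to the left of the others over most of its length, with medians of 14 and 3, so the lower levels were not confined to a few cells.

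The count of called genes varied across the clusters that both cardioid samples fill, which also differ in cell number and so in counting error. In cluster 12, led by cell cycle genes, 10 of 34 genes were called lower with PD173074 and 0 higher, against 1.56% and 1.66% of all genes above the floor there, and the median log2 ratio was −0.70. PGK1 in that cluster was at 838 CPM without PD173074 and 306 with it, and BNIP3 at 719 and 277 CPM. In cluster 2, 6 of 35 were called lower and 0 higher, against 0.185% and 0.00975% of all genes, with a median of −0.34. The 6 were ENO1, LDHA, EGLN3, BNIP3, FAM162A and DDIT4. In cluster 4, 4 of 35 were called lower and 0 higher, against 0.961% and 0.893%. The 4 were PGK1, ENO1, LDHA and EGLN3. In cluster 10, 0 of 35 were called, where 0.0574% of all genes were called lower and 0.0191% higher, and the median was −0.18. Clusters 2 and 10 held 309 and 83 cells without PD173074, against 1739 and 505 with it. The proportion was near constant, also in cluster 9 below (87 and 531 cells), for a reason that was not tested. The few calls in these clusters are thus not read as a response particular to their cells. The proportion was also similar among clusters 0, 1, 5, 7 and 11, which the 2D culture dominates. They held 329, 278, 102, 66 and 47 cells without PD173074, against 2598, 2422, 905, 704 and 484 of the 2D culture. The reason was not tested there either.

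Clusters of the 2D culture also differed in these genes. Cluster 1 counted 10 of the 37 among its 100 leading genes, so they helped to define it and its levels are a description. It held PGK1 at 1451 CPM and GAPDH at 8469 CPM in the 2D culture, against 939 and 4193 CPM in cluster 0. KDM3A, P4HA1 and PDK1 were lower in cluster 1 than in cluster 0, at 51.6, 80.7 and 122 CPM against 76.6, 135 and 151 CPM. Cluster 11, led by the ventricular genes MYL2 and MYH7, held PGK1 at 533 CPM, ENO1 at 957 CPM and BNIP3 at 366 CPM.

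Levels that followed PGK1 most closely over the 21 TNNT2-high sets of 1 cluster in 1 sample were those of FAM162A (Spearman's rho 0.97), LDHA (0.95), ENO1 (0.94) and BNIP3 (0.94). PFKM (0.07) and KDM3A (−0.34) did not follow it, and MXI1 (−0.46) and ADM (−0.43) ran opposite. These sets share 3 samples and their libraries. The clusters were also made from the same expression values, and these 5 genes (PGK1, FAM162A, LDHA, ENO1 and BNIP3) were among the 100 leading genes of cluster 1. The values are therefore a description.

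**Figure D4:**
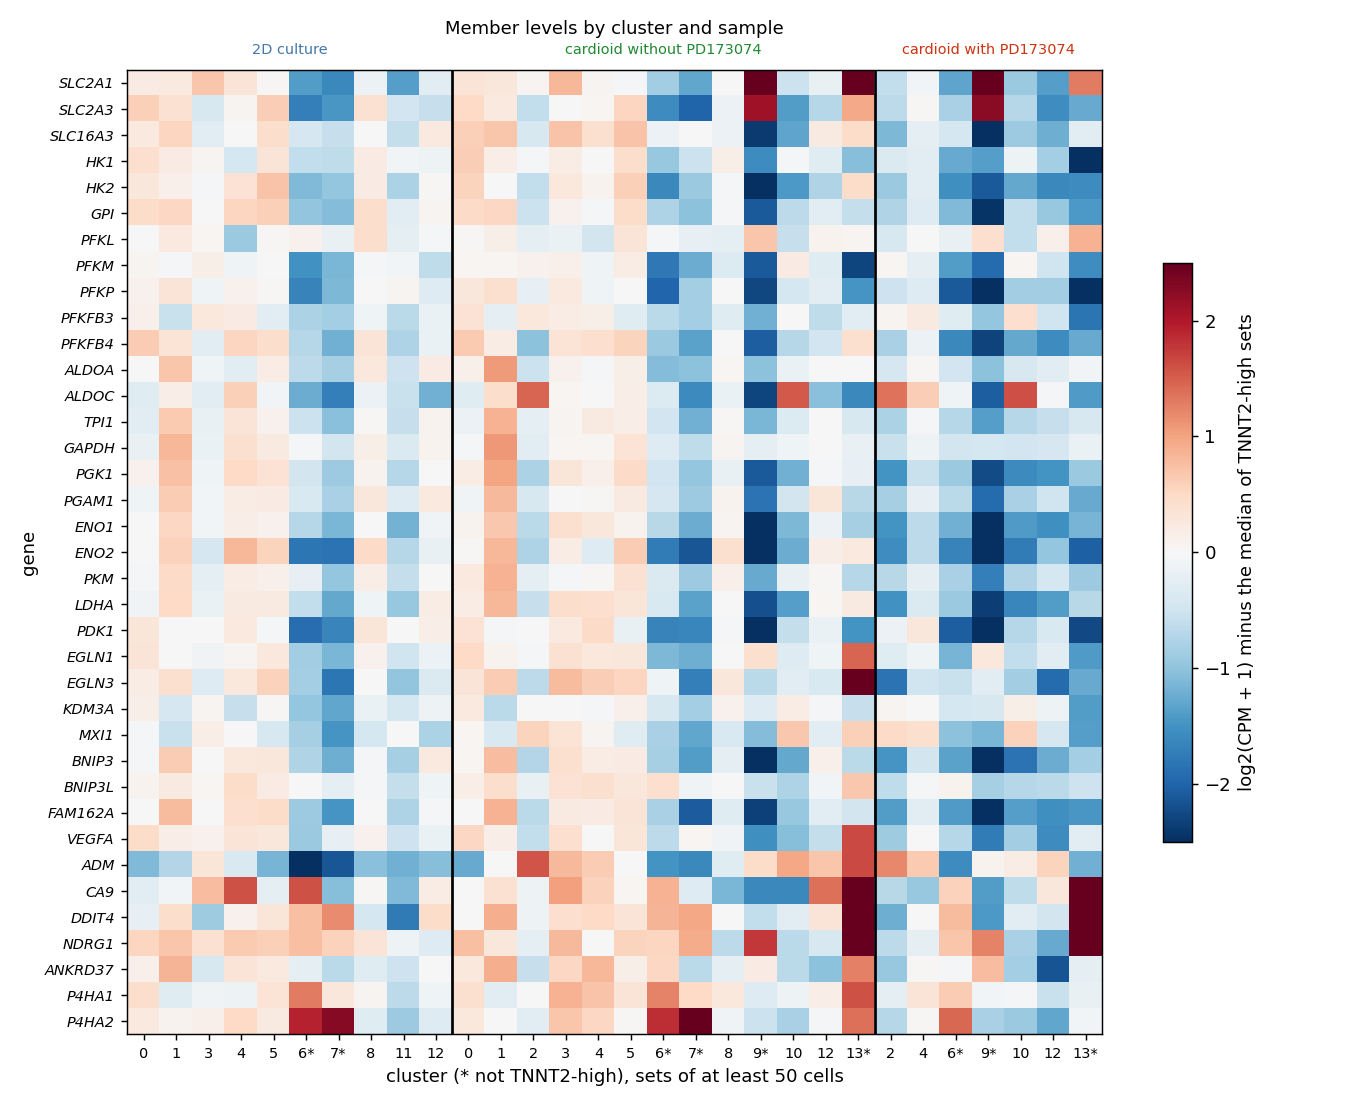
Level of each gene as log2(CPM + 1) minus its median over the TNNT2-high sets, by cluster within each sample, for sets of at least 50 cells; an asterisk marks clusters that are not TNNT2-high, and the colour scale is capped at both ends. PGK1, ENO1, LDHA, BNIP3 and FAM162A change together across columns, while ALDOC and ADM are high in cluster 2, and SLC2A1 is high in clusters 9 and 13.

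Outside the TNNT2-high cells, the endoderm-like cluster 13 (led by SERPINA1, TTR and AFP) also had genes called lower with PD173074, though it held only 74 cells without PD173074 and 55 with it. There 19 of 37 were called lower and 0 higher, against 11.1% of all genes above the floor called lower and 5.02% higher. Of the hypoxia genes 11 of 16 were called lower, with a median log2 ratio of −1.52, and of the glycolysis genes 8 of 21, with a median of −0.76. The median over all genes above the floor in this cluster was −0.53, with 8058 of 11132 below 0. EGLN3 was at 764 CPM without PD173074 and 33.5 CPM with it, a log2 ratio of −4.51 (−5.08 to −3.99). SLC2A1 was at 1386 and 258 CPM, VEGFA at 306 and 79.3 CPM, DDIT4 at 685 and 196 CPM and P4HA1 at 301 and 87.9 CPM. BNIP3, at 408 and 363 CPM, and GAPDH, at 4209 and 4281 CPM, were not called. ADM, not called in TNNT2-high cells, was lower here, at 70.9 and 8.90 CPM. Over the same cells, 5 of 9 epithelial markers were called lower with PD173074 and 0 higher, 4 of 8 stromal markers lower and 1 higher, and 2 of 7 endoderm markers lower and 3 higher. Of the cell cycle markers 4 of 6 were called higher and 0 lower, their sum going from 90.8 to 200.1 CPM. The cardiomyocyte markers had 3 of 10 called higher and 0 lower and summed to 629 CPM without PD173074 and 1502 with it. The part of these in the result was not tested.

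**Figure D5:**
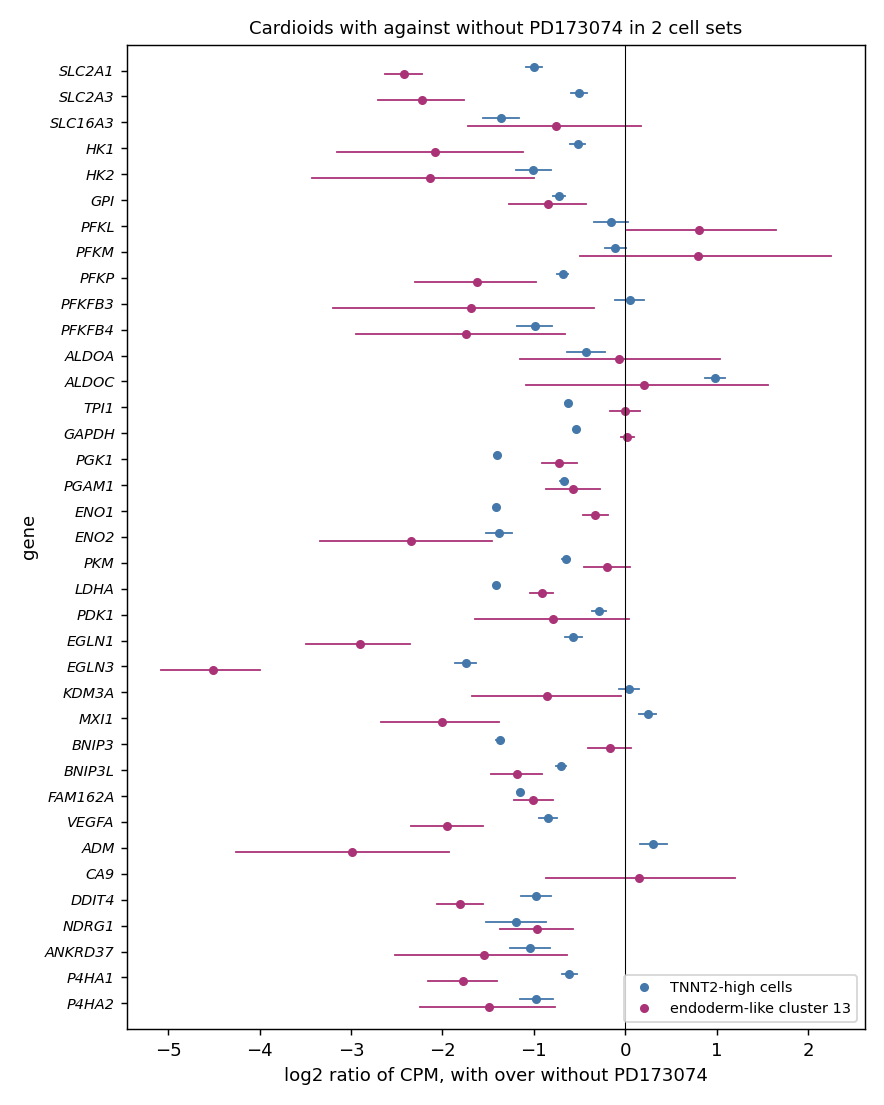
Log2 ratio of CPM with over without PD173074, with 95% counting intervals, for TNNT2-high cells (blue) and the endoderm-like cluster 13 (purple). EGLN3, at −4.51 against −1.75, and SLC2A1 lie further left in cluster 13, while ENO1 and BNIP3 lie further left in TNNT2-high cells.

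In the epithelial-like cluster 9 (led by GABRP, VTCN1 and KRT19) no gene of the 30 above the floor was called in either direction, where 0.235% of all genes were lower and 0.051% higher. SLC2A1 was at 906 CPM without PD173074 and 954 CPM with it, and SLC2A3 at 565 and 625 CPM. PGK1 was at 202 and 184 CPM and ENO1 at 320.3 and 277 CPM, below every TNNT2-high set. Cluster 9 held 87 of 3534 cells without PD173074 and 531 of 4597 with it. The proportion between the cardioid samples was near that of clusters 2 and 10, and the reason was not tested. The lack of calls in cluster 9 is thus not read as a lack of response to PD173074. None of the 2D culture's 8183 cells fell in it, and a count of 0 there leaves room for up to 0.0367%. Over all cells, SLC2A1 was not lower with PD173074 than without it, at a log2 ratio of 0.19, and was called higher than in the 2D culture, at 1.25. Over all cells 20 genes were called lower and 0 higher with PD173074 against without it, where 4.62% and 6.29% of all genes were. Over all cells without PD173074 against the 2D culture, 3 were called higher (SLC2A1, EGLN3 and ADM) and 0 lower, where 3.38% and 1.28% of all genes were. With PD173074 against the 2D culture, 17 were called lower and 3 higher (SLC2A1, ALDOC and ADM), where 6.29% and 9.7% of all genes were.

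P4HA1 and P4HA2, which serve collagen assembly, were also measured in the cartilage-like cluster 6 and the stromal-like cluster 7. In the 2D culture P4HA1 was at 247 CPM in cluster 6 and 122 in cluster 7, and P4HA2 at 109 and 138 CPM, against 111 and 29.7 CPM over all TNNT2-high cells. Single TNNT2-high clusters of the 2D culture had from 63.4 to 135 CPM of P4HA1, a range that holds the level of cluster 7, and from 14.4 to 39.4 CPM of P4HA2. With PD173074, cluster 6 had 155 CPM of P4HA1 and 76.5 CPM of P4HA2, and 0 of its 34 genes above the floor were called against the sample without it, where 0.752% of all genes were lower and 0.598% higher.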

How the data were processed

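The authors deposited 11 matrices of UMI counts (genes by barcodes), for which the submitters' processing notes name Cell Ranger 7.0.0 and the build hg38. Which gene annotation was used is not given in the sources. The 3′ chemistry was version 2 or 3, per the labels' protocols. The genes and lists were chosen with earlier results of these data known. Cells were barcodes in every run of a group whose means reached 1000 UMIs and 500 genes, with 30% mitochondrial UMIs or less. No doublet caller was run and no doublets were removed. Cells were clustered with scanpy 1.11.5 and leidenalg 0.10.2 (2000 variable genes, 30 components, 15 neighbours, resolution 0.6, no correction between samples). A planned cardiomyocyte-like class could not be named, so clusters above 1000 CPM of TNNT2, a rule chosen after seeing the data, took its place. CPM were computed here from the deposited counts. With 1 sample per group, called genes have no p-value. The calling was tested on simulated data that held counting error only, so that test cannot speak to variation between cultures. Every one of the 37 genes is named. Alternatives dropped each run in turn or used other scalings, floors, folds, cell filters, resolutions, cluster weightings or thinnings, of which 3 were added after seeing the data.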

Additional observations from a re-analysis of the deposited data

Results flagged for a closer look

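Run 3 of the cardioid without PD173074 lay apart from the other 4 runs of that sample in TNNT2-high cells for 16 genes, by Dixon's criterion, which chance meets in about 1 in 20 groups. It was the highest run for GAPDH at 6710 CPM, LDHA at 2084 CPM, TPI1 at 1307 CPM, FAM162A at 1078 CPM, PKM at 727 CPM, PGAM1 at 527 CPM, ALDOC at 62.0 CPM and ALDOA at 27.0 CPM. It was the lowest run for ENO1 at 2402 CPM, PGK1 at 931 CPM, BNIP3 at 720.2 CPM, PFKP at 281 CPM, P4HA1 at 134 CPM, PDK1 at 129 CPM, DDIT4 at 37.6 CPM and HK2 at 30.5 CPM. These runs come from 1 set of cells.

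Some genes moved one way in TNNT2-high cells and the other way in another cluster, with counting intervals on opposite sides of 0; none of these differences was tested. With PD173074 against without it, SLC2A3 had a log2 ratio of 0.77 in the cartilage-like cluster 6, and against the 2D culture 0.92, where TNNT2-high cells had −0.51 and −0.91. In the endoderm-like cluster 13, MXI1 had a log2 ratio of −2.0 and ADM of −2.99 with PD173074 against without it, where TNNT2-high cells had 0.25 and 0.31. Without PD173074 against the 2D culture, the stromal-like cluster 7 had ENO1 at −0.10 and BNIP3 at −0.18, where TNNT2-high cells had 0.10 and 0.04. Cluster 7 held 66 cells without PD173074 and 704 of the 2D culture, among the similar proportions given above. Of all 9625 genes above the floor there, 14 were called higher and 6 lower. Its ratios are thus not read as an opposite response.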

How the results depend on the processing

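Each group was 1 sample, so culture-to-culture variation is unknown and intervals cover counting error only. No paired analysis was possible because the numbered libraries of a group are repeat runs of 1 sample. Of 216 recomputed summary values, 193 kept within 1.5 times the main count or within the interval of the main value. For the genes called lower with PD173074 against without it, leaving out each run in turn gave 20 to 22, with medians of −0.71 to −0.68. Without PD173074 against the 2D culture it gave 0 lower and 1 higher throughout (medians 0.03 to 0.05), and with PD173074 against the 2D culture 20 lower and 3 higher throughout (medians −0.67 to −0.65).

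With PD173074 against without it, a fold of 2 left 8 lower and 0 higher, and shared clusters weighted equally left 6 lower and 0 higher with a median of −0.39. The median was −0.62 after median-of-ratios scaling and −0.77 without cells in clusters mostly of another sample, and over all cells 0 were higher. Without PD173074 against the 2D culture, the genes called higher became 2 without cells in clusters mostly of another sample, 0 with shared clusters weighted equally, 2 without clusters led by a marker of another class and 3 over all cells (SLC2A1, EGLN3 and ADM). With PD173074 against the 2D culture, a fold of 2 left 7 lower, and shared clusters weighted equally (2 clusters) left 8 lower and 0 higher with a median of −0.53. Over all cells that median was −0.56. In both comparisons with the sample without PD173074, the shared clusters include those with the near constant or similar proportions of cells given above. Their fewer calls are thus not read as smaller differences. Direction reversed over all cells for SLC2A1 with PD173074, at 0.19 against without it and 1.25 against the 2D culture, and for SLC2A3 against the 2D culture, at 0.30. With PD173074 against without it, SLC2A3 (0.38 over all cells), PFKL, PFKFB3, KDM3A, MXI1 (−0.05) and ADM (−0.0071) also changed sign and were called in neither set of cells. The causes were not tested. BNIP3 was found in 49.3%, 46.9% and 21.7% of TNNT2-high cells (2D culture, without and with PD173074) after thinning to 1000 UMIs, and in 85.2%, 83.5% and 60.9% without thinning.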

Other observations

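Neighbouring genes of these pathways, from lists chosen with earlier results known, were looked at in the same TNNT2-high cells. Of 33 further HIF and hypoxia genes above the floor, 8 were called lower with PD173074 than without it and 1 higher, where 4.58% and 5.33% of all genes were. Their median log2 ratio was −0.30, against −0.07 over all genes. NDUFA4L2, a HIF-induced mitochondrial protein, was at 41.7 CPM in the 2D culture, 98.1 without PD173074 and 7.54 with it, a log2 ratio of −3.70 (−3.93 to −3.48) between the cardioids. STC1, the secreted hormone stanniocalcin, was at 13.4, 10.8 and 2.16 CPM, and HILPDA, a lipid droplet protein, at 36.5, 38.7 and 17.1 CPM. AK4, a mitochondrial adenylate kinase, ERO1A, an oxidase of the endoplasmic reticulum, STC2, FUT11 and INSIG2 made up the rest of the 8. IGFBP3, which binds insulin-like growth factors, was the exception, at 7.13, 15.8 and 50.8 CPM. The RNA of HIF1A, the oxygen-regulated subunit, was at 133, 141 and 122 CPM and was not called.

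Of 22 further glycolysis genes above the floor, 2 were called lower with PD173074 than without it and 0 higher, against the same shares of all genes, and the median log2 ratio was −0.23. One of them, ENO3, the muscle enolase, was at 194 CPM in the 2D culture, 164 without PD173074 and 55.2 with it, a log2 ratio of −1.57 between the cardioids. LDHB, the other lactate dehydrogenase subunit of heart, was at 856, 868 and 804 CPM and was not called, where LDHA was.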
